A study of Mus musculus with 4 samples.

Results

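Imprinted growth regulators were followed in single cells of the mouse prostate and of its embryonic precursor. The set held 10 genes (Igf2, H19, Dlk1, Meg3, Mest, Peg3, Plagl1, Cdkn1c, Grb10 and Igf2r), taken by symbol from the 31053 genes listed in all 4 single-cell matrices of the series, and each of the 10 had a row in every matrix. The adult libraries were 3 runs of EPCAM+ cells sorted as RFP+ or RFP- from 3 lobes of the prostate, AP (anterior), VP (ventral) and DLP (dorsolateral), of P2-Runx1:RFP mice on an ICR (CD-1) background, in which RFP reports the P2 promoter of Runx1, older than 8 weeks and either intact or castrated for more than 4 weeks (runs 1 and 2 only). The fourth library held EPCAM+ cells of ICR (CD-1) urogenital sinus (UGS) explants dissected from E15.5 embryos and cultured for 0, 1, 3 or 6 days with insulin, transferrin, selenite and 10 μM dihydrotestosterone. The adult mice were male, and the sex of the embryos is not stated. Mice were pooled within each adult run and explants were pooled within each day, so that a day and its pool cannot be told apart, and the explant comparisons have no replicate.

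In an imprinted gene the alleles from the parents are expressed unequally, under the direction of methylation marks laid down in the germline. Such genes cluster in the genome, many are active in the embryo and less so after birth, and those expressed from the paternal allele tend to favour growth while those expressed from the maternal allele tend to restrain it. Igf2 (a fetal growth factor), Dlk1 (a membrane protein related to the Notch ligands), Mest (a hydrolase-family protein), Peg3 and Plagl1 (zinc-finger transcription factors) are known as paternally expressed. H19 and Meg3 (long noncoding RNAs of the Igf2 and Dlk1 clusters), Cdkn1c (an inhibitor of cyclin-dependent kinases), Igf2r (a receptor that takes up IGF2 for degradation) and, in most tissues, Grb10 (an adaptor that dampens insulin and IGF receptor signalling) are known as maternally expressed. The counts here do not separate the alleles.

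The matrices listed 19148 cells, of which 9889 could be assigned to a day or population, 5198 of them in the explant library and 4691 in the adult libraries. UMIs (unique molecular identifiers, one per captured transcript) totalled 35051876 to 86381807 per adult run and 121090404 in the explant library, and median UMIs per cell were 9750.0 to 13055 and 14785. Any pair of libraries shared 0 to 6 cell barcodes. Explant cells fell into 3 classes by their own transcripts: collagen-high (Col1a1, Col1a2 and Col3a1 together at 20 or more per 10000 UMIs), otherwise Pax2-positive (at least 1 Pax2 UMI), otherwise Epcam-positive (at least 1 Epcam UMI and collagen under 10 per 10000). There were 565, 687, 1135 and 2298 Epcam-positive cells on days 0, 1, 3 and 6, with 104, 48, 56 and 117 Pax2-positive and 21, 54, 22 and 17 collagen-high cells. Adult Epcam-positive cells without Ptprc, Pecam1 or Pax2 UMIs were called basal gate where Krt5, Krt14 and Trp63 together reached 5 per 10000 UMIs and luminal gate where they stayed at or under 2.

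The class labels were checked against other marker genes. The 9 mesenchymal genes that took no part in the gate (Pdgfra, Pdgfrb, Lum, Postn and others) summed to 1070 to 1666 CPM (UMIs of a gene per 1000000 UMIs of the cells summed) in collagen-high cells and to 6.24 to 15.7 CPM in Epcam-positive cells. The collagen-high cells were not pure, since the 5 basal epithelial markers reached 1396 CPM on day 0 and 3323 CPM on day 6 in them. The 7 mesonephric markers summed to 1150.0 to 2803 CPM in Pax2-positive cells against 257 to 732 CPM in Epcam-positive cells, but Pax2 itself is a member of that list and 59, 33, 43 and 93 Pax2-positive cells held just 1 Pax2 UMI. Hematopoietic markers stood at 0 UMIs in collagen-high cells and at most at 2.18 CPM in Epcam-positive cells. The 5 urothelial markers summed to 398 to 686 CPM in Epcam-positive cells, from which no urothelial cells were removed. In the adult basal gate of run 2 the 11 luminal markers summed to 9965 CPM beside 9334 CPM of the basal markers. The luminal markers summed to 3874 and 3449 CPM in the basal gate of runs 1 and 3.

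Igf2 has a limit of its own. Of its 5723 exon bases, 3596 (62.8%) are shared on the same strand with the annotated gene Gm49394, including 2997 of the last 3000 bases, where a 3′ library is read, and Gm49394 was listed at 0 in every library. Reads that fit both genes are not counted for either by the counting used. The authors' reference held Gm49394, since it has a row in every matrix. The overlap is that of GENCODE M21, and whether the exon bounds were the same in the authors' reference could not be checked. The size of any loss was not tested. The Igf2 values (516 UMIs in the whole explant library and 2 in the adult libraries) are therefore given as they stand, with no fold taken from them. Overlaps of Cdkn1c, Mest and Meg3 with other genes lay on the opposite strand.

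Dlk1 and Meg3 lie in one imprinted cluster on chromosome 12 (Dlk1 at chr12:109452823-109463336 and Meg3 at chr12:109541001-109571726, both on the plus strand, GRCm38, GENCODE M21), and both were several times higher on day 6 than on day 0 of culture in Epcam-positive cells (below), whereas Igf2r (chr17:12682406-12769664, minus strand) stayed within 2-fold between those days. The RefSeq promoters of the 3 genes (GRCm38.p6, 250 bases before to 50 bases after the annotated start) are shown for that reason, with each CpG dinucleotide, the substrate of DNA methylation, in capitals. Whether these windows hold a germline methylation mark was not examined. They span chr12:109452573-109452872 for Dlk1, chr12:109540746-109541045 for the first Meg3 start and chr17:12769657-12769956 for Igf2r. The table held promoters of 8 of the 10 genes. CpG was searched as the letters CG, which read the same on both strands. The Dlk1 window held 9, a number that 45.8% of 32851 RefSeq promoters reach or pass, the Meg3 window 13 (37.9%) and the Igf2r window 34 (7.73%).
Dlk1: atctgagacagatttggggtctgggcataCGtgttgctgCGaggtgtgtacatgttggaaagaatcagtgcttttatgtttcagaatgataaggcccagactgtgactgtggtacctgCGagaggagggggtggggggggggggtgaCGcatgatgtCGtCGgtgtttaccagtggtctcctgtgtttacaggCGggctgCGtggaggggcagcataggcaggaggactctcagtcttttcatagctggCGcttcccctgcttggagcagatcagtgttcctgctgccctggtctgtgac
Meg3: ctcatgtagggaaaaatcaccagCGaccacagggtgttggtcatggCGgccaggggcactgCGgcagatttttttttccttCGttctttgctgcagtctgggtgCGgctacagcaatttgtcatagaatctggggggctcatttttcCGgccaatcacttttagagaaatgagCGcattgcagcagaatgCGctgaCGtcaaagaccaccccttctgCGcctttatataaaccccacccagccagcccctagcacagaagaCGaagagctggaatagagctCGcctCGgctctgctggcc
Igf2r: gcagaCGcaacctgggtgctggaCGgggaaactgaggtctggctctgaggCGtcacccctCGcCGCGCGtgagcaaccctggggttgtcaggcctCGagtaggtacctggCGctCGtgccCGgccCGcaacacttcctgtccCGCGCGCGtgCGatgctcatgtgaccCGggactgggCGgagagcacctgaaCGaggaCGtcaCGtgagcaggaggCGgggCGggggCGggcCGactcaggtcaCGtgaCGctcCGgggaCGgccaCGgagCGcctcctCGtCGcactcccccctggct

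In Epcam-positive explant cells the Dlk1 and Meg3 transcripts and Mest were several times higher on later days, H19 was lower, and Cdkn1c, Peg3, Grb10 and Igf2r stayed within 2-fold. Meg3 stood at 77.2 CPM on day 0, 164 on day 1, 556 on day 3 and 717 on day 6, so that every step was upward. Day 6 was 9.29-fold above day 0 (95% interval 8.73 to 9.90, exact for the UMI counts and covering counting error only). Dlk1 stood at 19.2, 14.4, 109.95 and 103 CPM on the same days and was 5.36-fold higher (4.72 to 6.10) on day 6 than on day 0. Its step came between days 1 and 3 (7.63-fold), where Meg3 was 3.39-fold higher. Mest followed another course, with 4.91 CPM on day 0, 50.7 on day 1, 145 on day 3 and 34.2 on day 6. It peaked on day 3, and day 6 was 6.97-fold (5.44 to 9.07) above day 0 but 4.25-fold below day 3. Plagl1 was low throughout, at 9.97, 16.0, 21.2 and 22.0 CPM, which made day 6 2.21-fold (1.84 to 2.68) higher than day 0. H19 was 268 CPM on day 0 and 261 on day 1 but 109.9 on day 3 and 100.01 on day 6, or 2.68-fold lower (2.56 to 2.81) by the end. The partner gene Igf2 was listed at 7.89, 6.64, 2.76 and 2.22 CPM, too low for the fold rule used here.

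That rule counts differences of at least 2-fold among genes with 20 CPM or more in one group. By it, 9 of the 10 genes could be read between day 6 and day 0. Of these, 4 were higher (Meg3, Mest, Dlk1 and Plagl1) against 3.99% of 6064 genes, and 1 was lower (H19) against 5.15%. Mest, Dlk1 and Plagl1 were under 20 CPM on day 0 and could be read only through day 6, where they are higher. In every comparison by this rule, a gene under 20 CPM in one group is read through the other, so the counts are descriptions. From day 1 to day 3, 3 were higher (Dlk1, Meg3 and Mest; 0.794% of genes) and 1 lower (H19; 1.16%). From day 0 to day 1, 2 were higher (Mest 10.3-fold and Meg3 2.13-fold; 1.67%) and none lower (1.04%), and from day 3 to day 6 none was higher (0.659%) and 1, Mest, was lower (0.588%). Of the genes known as maternally expressed, Cdkn1c, Grb10 and Igf2r stayed under 2-fold between day 6 and day 0, while Meg3 was higher and H19 lower. Cdkn1c stood at 982, 888, 700.5 and 763 CPM, a day 6 level 0.777 times that of day 0 (0.761 to 0.793). For Grb10 the values were 132, 111, 108 and 86.4 CPM (0.655 times). Igf2r was 22.5, 27.6, 35.2 and 35.8 CPM (1.59-fold higher), and the zinc-finger gene Peg3 159, 139, 146 and 185 CPM (1.16-fold higher).

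**Figure D1:**
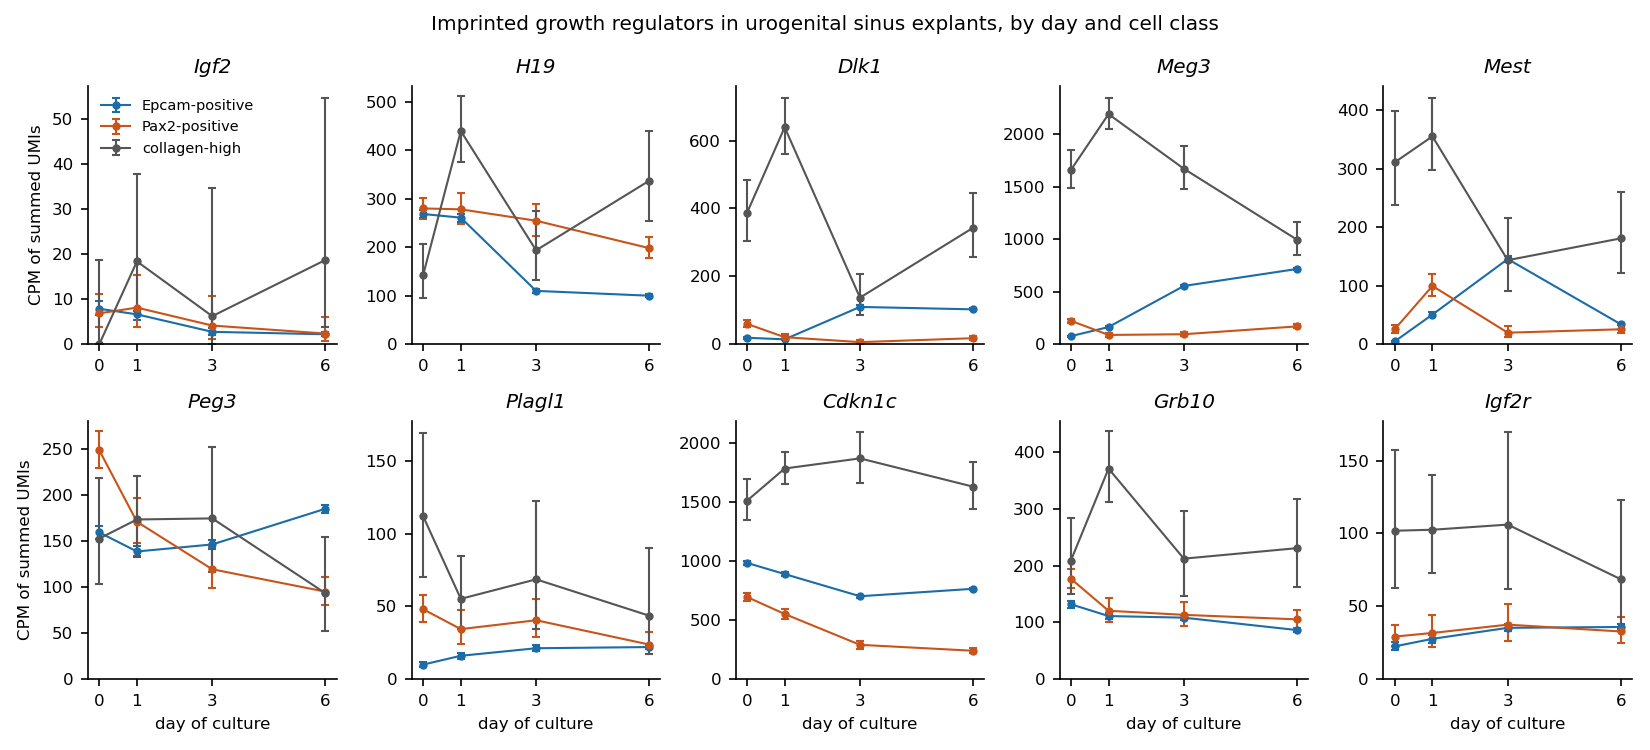
CPM of summed UMIs (linear vertical axes, each starting at 0) for the 10 genes against day of culture in Epcam-positive, Pax2-positive and collagen-high explant cells, with exact 95% Poisson intervals that cover counting error only and 1 pool of explants per day. Meg3 in Epcam-positive cells runs from 77.2 CPM on day 0 to 717 on day 6 toward the collagen-high level, while in Pax2-positive cells Cdkn1c and Peg3 run downward.

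The share of cells carrying the transcript gave the same picture at matched depth. Thinned to 5000 UMIs per cell (1, 13, 11 and 14 Epcam-positive cells were shallower and left out), 19.5% of Epcam-positive cells held a Meg3 UMI on day 0, 29.0% on day 1, 64.4% on day 3 and 64.4% on day 6. Without thinning the shares were 35.8%, 42.5%, 73.4% and 71.0%. For Dlk1 the thinned shares were 7.16%, 5.28%, 26.8% and 22.9% (unthinned 14.5%, 13.8%, 44.3% and 35.9%), and for H19 they were 65.4%, 61.9%, 31.8% and 28.9% (unthinned 91.5%, 88.4%, 57.4% and 47.3%). More cells held Meg3 and Dlk1 UMIs on the later days, and fewer held H19.

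Mesenchymal genes gave a measure of the RNA that Epcam-positive cells shared with mesenchyme. The mesenchymal genes outside the gate stood in Epcam-positive cells at 1.47%, 0.924%, 0.374% and 0.616% of their collagen-high level on days 0, 1, 3 and 6. The same share of the collagen-high level of each gene would make up 92.9% of the Mest, 31.6% of the Meg3, 29.6% of the Dlk1 and 16.5% of the Plagl1 measured in Epcam-positive cells on day 0, and 41.0% of the Dlk1 and 12.4% of the Meg3 on day 1. No other value on those days passed 6.65%, and on days 3 and 6 no gene passed 5.19%. Mest on day 0 was thus near this level, and Meg3, Dlk1 and Mest on days 3 and 6 stood far above it. What part carried RNA had in the day 0 values was not tested.

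In Pax2-positive cells, Meg3 and Dlk1 stood higher on day 0 than on any later day. Meg3 was 224 CPM on day 0, 88.7 on day 1, 95.5 on day 3 and 170.1 on day 6, and Dlk1 was 60.1, 20.8, 6.23 and 17.8 CPM. The lowest values came on day 1 for Meg3 and on day 3 for Dlk1. Between day 6 and day 0, none of the 9 genes that could be read was 2-fold higher (7.98% of 6628 genes were) and 4 were lower (9.37%), namely Dlk1 (3.37-fold, 2.26 to 5.18), Cdkn1c (2.897-fold, 2.60 to 3.24), Peg3 (2.62-fold, 2.19 to 3.14) and Plagl1 (2.02-fold, 1.40 to 2.98). Cdkn1c stood at 694, 550.3, 290 and 240 CPM on days 0, 1, 3 and 6 in these cells. H19, in contrast to its course in Epcam-positive cells, remained at 280, 278, 254 and 198 CPM. Mest was 25.7 CPM on day 0 and 25.6 on day 6, with 99.6 CPM on day 1. Other markers of this class also differed by day. Urothelial markers summed to 220, 844, 1470 and 1382 CPM on days 0, 1, 3 and 6, and basal markers to 1317, 830, 2679 and 2383 CPM. What part the make-up of the class had in its day values was not tested.

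Set beside Epcam-positive cells of the same day, the genes at least 2-fold apart were higher in Pax2-positive cells on days 0 and 1 and mostly lower on days 3 and 6. On day 0 they held more Mest (5.24-fold), Plagl1 (4.82-fold), Dlk1 (3.13-fold) and Meg3 (2.902-fold), 4 genes against 4.59% of all genes, and less of none (3.95%). On day 1 Plagl1 alone was 2-fold higher (2.14-fold; 4.85%) and none was lower (4.32%). On day 3 H19 was higher (2.32-fold; 7.05%) and Dlk1, Mest, Meg3 and Cdkn1c were lower (17.6-, 7.37-, 5.81- and 2.42-fold; 3.63%). On day 6 Dlk1, Meg3 and Cdkn1c were lower (5.76-, 4.22- and 3.19-fold; 2.47%) and none was higher (5.59%), with H19 just under the limit at 1.98-fold (1.76 to 2.22). These values rest on 48 to 117 Pax2-positive cells per day.

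Collagen-high cells carried the highest levels of Meg3, Cdkn1c and Dlk1 among the 3 classes on each day. Meg3 stood at 1661, 2193, 1673 and 997 CPM on days 0, 1, 3 and 6, Cdkn1c at 1508, 1780.5, 1866 and 1627 CPM, and Dlk1 at 387, 639, 137 and 343 CPM. Between day 6 and day 0, H19 was 2.36-fold higher (1.47 to 3.87; 14.7% of genes were) and Plagl1 2.57-fold lower (1.06 to 7.12; 15.47%). Against Epcam-positive cells of day 0, 5 genes were higher (Mest 63.3-fold, Meg3 21.5-fold, Dlk1 20.2-fold, Plagl1 11.2-fold and Igf2r 4.53-fold), beside 23.05% of all genes. The counts were 7 on day 1 (22.2%), 4 on day 3 (27.5%) and 5 on day 6 (25.4%), and none of the 9 genes that could be read was 2-fold lower on days 0, 1, 3 or 6 (9.75%, 10.9%, 12.03% and 7.58% of genes were). The Meg3 ratio of collagen-high to Epcam-positive cells was 21.5, 13.4, 3.01 and 1.39 on days 0, 1, 3 and 6. For Dlk1 it was 20.2, 44.3, 1.25 (0.781 to 1.90) and 3.33, and for Mest 63.3, 7.01, 0.987 (0.624 to 1.48) and 5.28. The Meg3 ratio was thus smaller on each later day, while those of Dlk1 and Mest were smallest on day 3, when the collagen-high cells themselves held 137 CPM of Dlk1 and 144 CPM of Mest against 387 and 311 on day 0. These values rest on 17 to 54 cells per day, and 7 Plagl1 UMIs on day 6.

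Epcam-positive cells were not uniform, and they were split in ways chosen after seeing the data. Krt4 and Psca are markers of adult proximal luminal cells. On day 6 the 78 cells with Krt4 and Psca together at 5 or more per 10000 UMIs were set beside the 2086 cells with at most 1. Meg3 was 78.5 CPM in the former and 751 CPM in the latter, a 9.56-fold difference (7.76 to 11.9). Dlk1 and Mest each had 2 UMIs in the Krt4- and Psca-rich cells (1.78 CPM), against 109.98 and 37.1 CPM, ratios of 0.0162 (0.00196 to 0.0586) and 0.0481 (0.00582 to 0.174). Peg3 was 38.4 against 196 CPM, Cdkn1c 259 against 787 and H19 50.8 against 102. In all, 6 of the 9 genes that could be read were at least 2-fold lower in Krt4- and Psca-rich cells, beside 10.1% of 5927 genes, and none was higher (8.72%). Grb10 (47.3 against 88.5 CPM), Plagl1 (24.1 against 22.0) and Igf2r (34.8 against 35.9) were not. Thinned to 5000 UMIs, 10.8% of these cells held a Meg3 UMI on day 6, against 67.4% of the others (unthinned 15.4% and 74.2%).

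**Figure D2:**
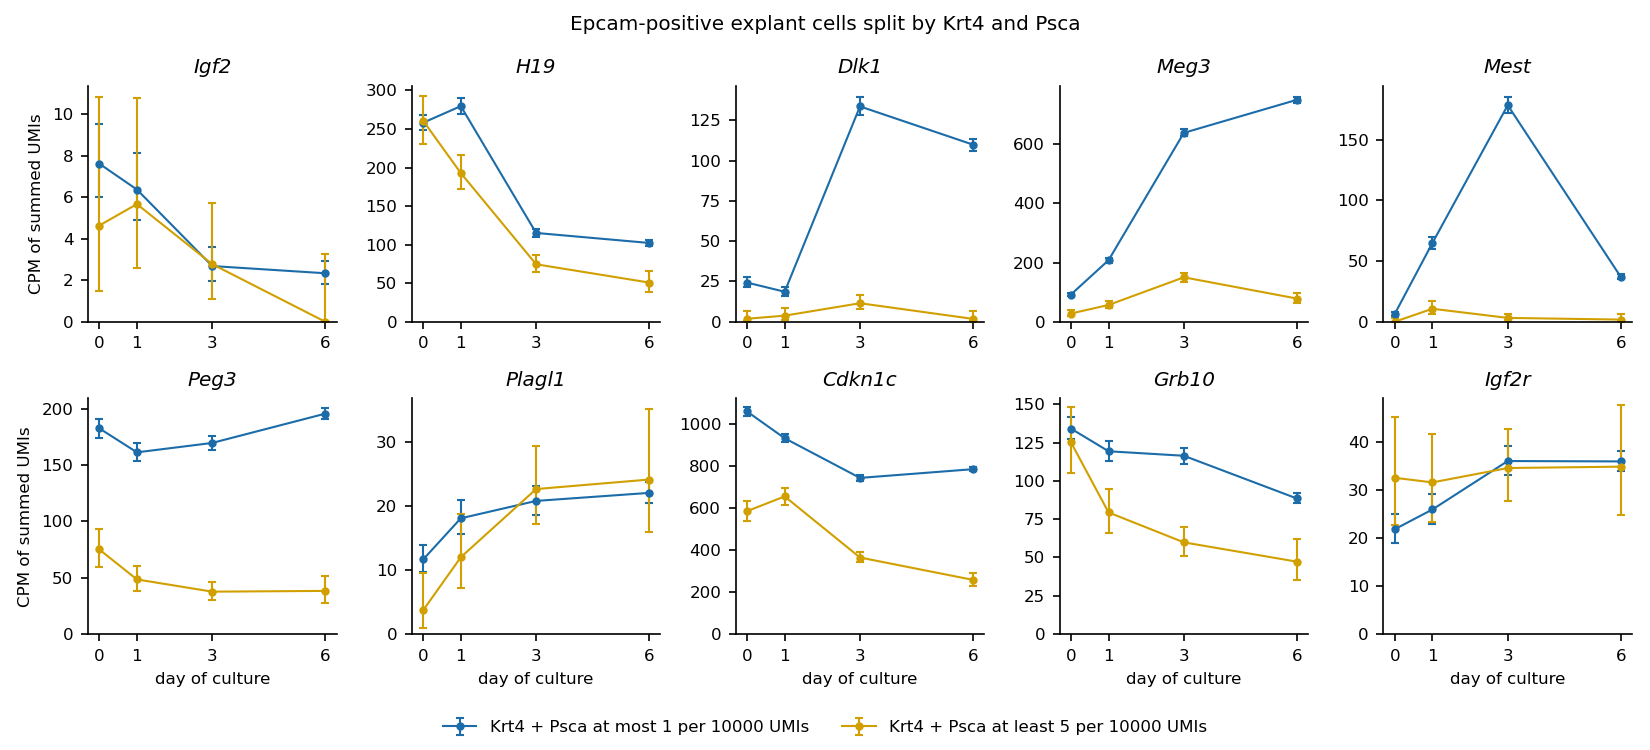
CPM of summed UMIs (linear vertical axes, each starting at 0) for the 10 genes against day of culture in Epcam-positive explant cells with Krt4 and Psca together at least 5 or at most 1 per 10000 UMIs, with exact 95% Poisson intervals. Meg3, Dlk1 and Mest (which peaks on day 3) stand lower on each day in the cells rich in Krt4 and Psca, whereas Igf2r lies at 31.5 to 34.8 CPM in these cells and 21.8 to 35.96 CPM in the others.

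A split by basal genes showed where the starting levels lay. On day 0 the 112 Epcam-positive cells of the luminal gate held 294 CPM of Meg3, 92.3 of Dlk1 and 33.1 of Plagl1, while the 390 cells of the basal gate held 33.6, 5.55 and 5.64 CPM. The luminal gate is set by low basal genes alone, and no other marker was checked in these explant cells. Mesonephric markers in all Epcam-positive cells summed to 645 CPM on day 0 and 257 CPM on day 6. What part such cells had in the luminal-gate values was not tested. By day 6 the basal-gate cells had 709 CPM of Meg3, 98.1 of Dlk1 and 23.3 of Plagl1, and the luminal-gate cells 606, 114 and 19.2 CPM. The higher day 6 level of Plagl1 was thus seen in basal-gate cells only, and the luminal-gate cells had 0.579 times their day 0 level. Dlk1 in luminal-gate cells, at 92.3 and 114 CPM, was also under 2-fold apart between these days. No gene of the set, H19 included, was 2-fold lower on day 6 in luminal-gate cells. Cells with and without a Mki67 or Top2a UMI, which marks cycling cells, held on day 6 707 and 724 CPM of Meg3, 722 and 792 of Cdkn1c and 93.2 and 105 of H19, with a wider gap for Mest (46.2 and 25.8) and Dlk1 (125 and 87.5). On day 0 the cells with such a UMI held less Meg3 (53.5 and 103 CPM) and Dlk1 (13.1 and 25.8), with intervals that did not overlap, and on day 3 they held more Dlk1 (145 and 74.2).

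In intact adult epithelium 5 of the 10 genes were near or at the limit of detection. H19 was not detected in 1581 basal-gate or 1381 luminal-gate cells (0 of 18424987 and 39470654 UMIs, which allows up to 0.163 and 0.0760 CPM). Igf2 had 0 and 2 UMIs, Dlk1 4 and 0, Meg3 2 and 2, and Mest 15 and 17 in the basal and luminal gates. Cdkn1c, Peg3, Grb10, Plagl1 and Igf2r were measurable. Meg3 was found in other adult cells, and the 25, 18 and 13 collagen-high cells of runs 1, 2 and 3 held 173, 359 and 590 CPM of it, whereas H19, Dlk1 and Igf2 had no UMI there (0 of 488082 UMIs, up to 6.15 CPM each).

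Set beside the adult cells, Epcam-positive explant cells were higher on every day than in every run for nearly all of the genes. Of the 9 genes that could be read, Cdkn1c and Igf2r alone reached 20 CPM in a basal-gate run, and Igf2r alone in a luminal-gate run. The others could be read only through the explant, where they are high. Against the basal gate, 8 of the 9 genes that could be read were at least 2-fold higher from the lowest day to the highest run, beside 6.44% of 7004 genes, and none was lower (5.48%). The smallest such gaps were at least 132-fold for H19, at least 102-fold for Meg3 and at least 23.1-fold for Dlk1 (each set by the 3-count floor of a run with 0 UMIs), 25.7-fold for Peg3, 8.56-fold for Cdkn1c, 6.40-fold for Grb10, 4.74-fold for Mest and 3.60-fold for Plagl1. Against the luminal gate, 7 of 9 were higher and none lower, but here 21.7% of 6872 genes were higher (5.40% lower) and the median gene was 1.78-fold higher in the explant (1.12-fold against the basal gate). The gaps were at least 278-fold for H19, at least 366-fold for Meg3 and at least 40.1-fold for Dlk1, again by that floor, 179-fold for Peg3, 71.3-fold for Cdkn1c, 23.3-fold for Grb10 and 5.86-fold for Mest, with Plagl1 at 1.77-fold. Against both gates the Mest gap is set by day 0, where RNA shared with mesenchyme would make up 92.9% of the 4.91 CPM measured. On the lowest days of Dlk1, Meg3 and Plagl1 that share was 41.0%, 31.6% and 16.5%. Igf2r was the exception, with 22.5 to 35.8 CPM in the explant, 28.6 to 39.1 CPM in the basal gate and 17.9 to 32.6 CPM in the luminal gate, ranges that overlap. Stage, culture and library differ together in this comparison and cannot be told apart. Sex may differ as well, since the adults were male and the sex of the embryos is not stated. Xist, the noncoding RNA of X inactivation, had a pattern near that of H19 over explant and adult sums (r = 0.989, below). The part of sex was not tested.

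**Figure D3:**
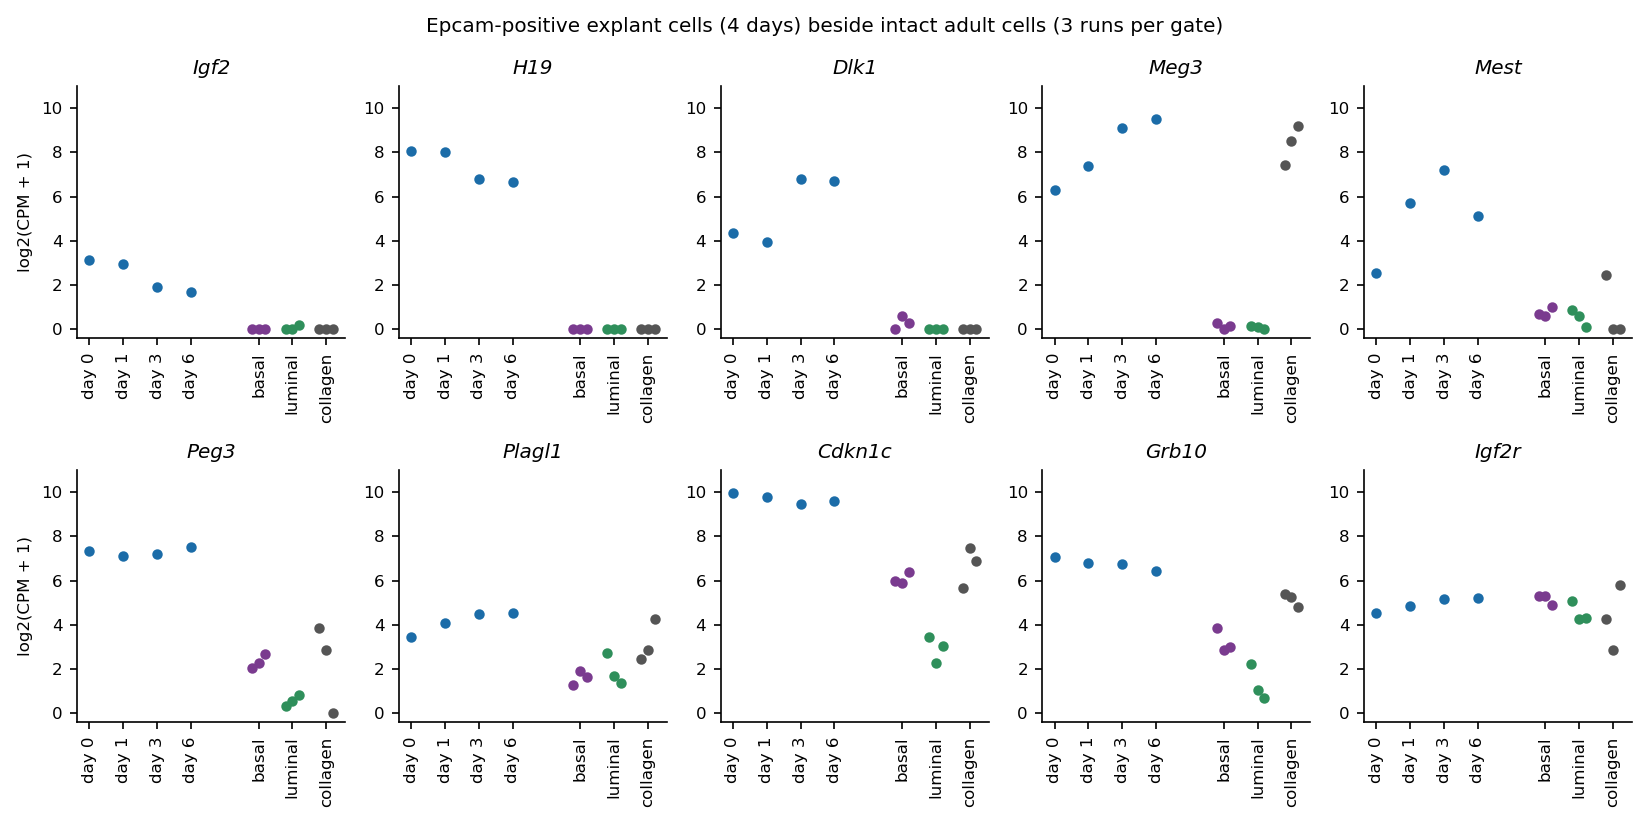
Level on a log2(CPM + 1) axis for the 10 genes in Epcam-positive explant cells on the 4 days (1 point per day) and in intact adult basal-gate, luminal-gate and collagen-high cells (1 point per run, 3 runs, no error bars). All genes but Igf2r stand higher on each explant day than in each basal-gate or luminal-gate run, Plagl1 by 1.77-fold or more and Igf2 by few UMIs, and adult collagen-high cells hold 173 to 590 CPM of Meg3. Mest on day 0 is near the level of RNA shared with mesenchyme.

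Basal and luminal cells of the intact adult prostate were then compared across the 3 runs by edgeR's quasi-likelihood test on UMI sums, which asks whether the genes differ between these epithelial lineages. Cdkn1c, Peg3 and Grb10 were higher in the basal gate, with all lobes pooled. Cdkn1c stood at 62.8, 59.2 and 81.8 CPM in the basal gate and at 9.82, 3.85 and 7.24 CPM in the luminal gate of runs 1, 2 and 3, so that the groups did not overlap (log2 fold change 2.80, SE 0.31, adjusted p = 0.000505, edgeR). With cells under 7500 UMIs only, the log2 fold change was 1.53 (adjusted p = 0.0134, edgeR). Peg3 was 3.12, 3.78 and 5.39 against 0.240, 0.473 and 0.773 CPM (log2 fold change 2.39, SE 0.54, adjusted p = 0.0101, edgeR). Grb10 was 13.5, 6.30 and 7.05 against 3.71, 1.07 and 0.633 CPM (1.91, SE 0.49, adjusted p = 0.0164, edgeR). The latter pair rests on few UMIs and on run 2, without which the adjusted p was 0.103 for Peg3 and 0.11 for Grb10 by the same test, and without run 3 it was 0.0834 for Grb10. Plagl1 (1.45, 2.77 and 2.07 against 5.63, 2.25 and 1.62 CPM) and Igf2r (39.1, 38.8 and 28.6 against 32.6, 17.9 and 18.7 CPM) overlapped between gates and did not pass (adjusted p = 0.103 and 0.64, edgeR). Of the 5 genes tested, 3 were higher in basal cells, in a comparison in which 22.3% of 11829 genes were higher and 21.4% lower. Peg3 and Grb10 passed the low-count filter of the test through their basal sums, where they are high. The count of 3 is therefore a description only. The other 5 genes had too few UMIs for the test. CPM and test scale differ here, since the 50 most abundant genes took 40.9 to 57.3% of luminal UMIs but 23.7 to 28.5% of basal UMIs, which put the median gene 0.55 (log2) higher in basal cells in CPM and at 0.01 in the test.

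**Figure D4:**
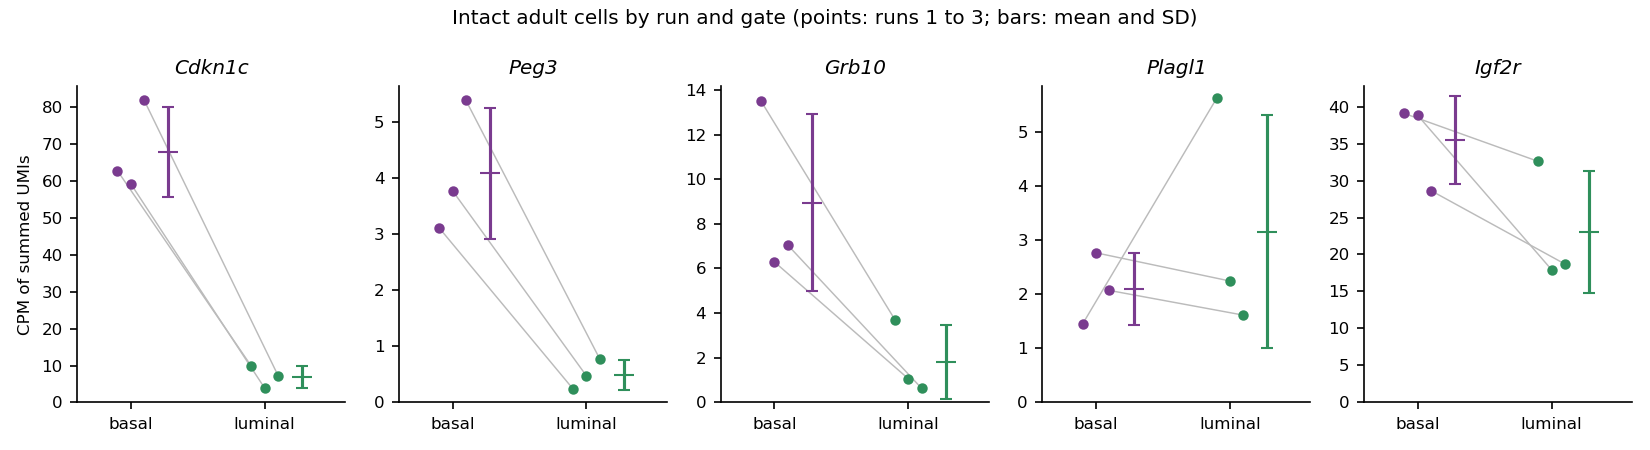
CPM of summed UMIs (linear axes from 0) of the 5 genes that could be tested, in intact adult basal-gate and luminal-gate cells of runs 1 to 3, with lines joining the gates of a run and bars for the mean and SD (n = 3). For Cdkn1c, Peg3 and Grb10 the 3 basal values all lie above the 3 luminal values, whereas for Plagl1 and Igf2r the values overlap.

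Among luminal cells of the AP, Plagl1 stood higher in RFP+ than in RFP- cells, at low counts. In intact AP luminal-gate cells it was 12.6, 9.31 and 5.68 CPM in RFP+ cells and 1.31, 1.87 and 1.52 CPM in RFP- cells of runs 1, 2 and 3, so that each RFP+ value lay above each RFP- value. Its counts were under the low-count filter of the test, and it has no adjusted p there. With no such filter the log2 fold change was 2.25 (adjusted p = 0.00108, edgeR). Other lobes were not compared, and held 3 UMIs in DLP RFP+ (1.20 CPM, 1 run) and 7 in DLP RFP- luminal-gate cells (0 to 5.41 CPM, 3 runs), with 1.09 to 1.55 CPM in VP RFP+ (3 runs) and 0 and 0.768 CPM in VP RFP- (2 runs). Cdkn1c (16.9, 9.31 and 15.9 against 11.1, 3.43 and 9.10 CPM) and Igf2r (54.1, 33.0 and 39.8 against 35.9, 26.2 and 24.3 CPM) were tested and did not pass (log2 fold changes 0.88, SE 0.40, and 0.39, SE 0.19, adjusted p = 0.147 and 0.177, edgeR), beside 12.9% of 8666 genes higher and 11.5% lower.

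Between VP and AP luminal cells the choice of scale mattered most. Igf2r stood at 13.2, 13.1 and 12.3 CPM in VP and 48.0, 28.3 and 35.5 CPM in AP, and Plagl1 at 1.23, 1.37 and 1.12 against 8.81, 4.13 and 4.55 CPM, without overlap. The median gene, however, was also 2.19-fold lower in VP in CPM, while 50 genes took 66.7 to 67.6% of the VP luminal UMIs and 24.7 to 39.1% of the AP ones. On the scale of the test, Igf2r differed by -0.42 (SE 0.16, adjusted p = 0.108, edgeR), Plagl1 by -1.10 (SE 0.34, adjusted p = 0.0519, edgeR) and Cdkn1c by -0.55 (SE 0.37, adjusted p = 0.341, edgeR), so none of the 3 genes tested passed, beside 9.40% of 10095 genes higher and 11.8% lower in VP. With the run as a block, 3452 genes passed in place of 2141, and still none of the 3. With no low-count filter Mest (0 in each VP run, 1.54, 1.74 and 0 CPM in AP) and Grb10 (0.615, 0.0912 and 0 against 6.17, 3.04 and 1.24 CPM) passed the same test with lower values in VP (adjusted p = 0.0446 and 0.0104, edgeR), both from few UMIs.

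Within basal cells, no gene of the set passed the test between RFP classes of the AP or between VP and AP. Cdkn1c was 61.3, 49.5 and 85.8 CPM in AP RFP+ and 43.6, 57.0 and 37.2 CPM in AP RFP- basal-gate cells (log2 fold change 0.53, SE 0.30, adjusted p = 1, edgeR), and 68.3, 66.9 and 45.0 CPM in VP against 57.6, 52.5 and 65.8 CPM in AP. In the first comparison edgeR called 0 of 8227 genes (0.0%; 94 at an unadjusted p under 0.05, and 1 by DESeq2) and in the second 13 of 8852 (0.113% higher and 0.0339% lower; 545 unadjusted). Few genes of any kind passed in this fit, which has no term for the run. With the run as a block, edgeR called 9 genes in the first comparison and 468 in the second, and still none of the set.

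Castration was read in run 2 alone, since run 1 held 6 basal-gate and 10 luminal-gate castrated cells, and its values carry no test. In basal-gate cells (259 castrated, 327 intact) Cdkn1c was 76.4 CPM in castrated and 59.2 CPM in intact cells (1.29-fold, 1.05 to 1.59), and Igf2r 31.2 against 38.8 CPM (0.803 times, 0.590 to 1.08), so that 0 of the 2 genes that could be read reached 2-fold, beside 2.25% of 5325 genes higher and 5.35% lower. Peg3 had 26 UMIs against 15 (12.7 and 3.78 CPM, 3.35-fold, 1.71 to 6.80), Plagl1 19 against 11 (9.25 and 2.77 CPM) and Grb10 26 against 25 (12.7 and 6.30 CPM), all under 20 CPM. In luminal-gate cells (504 and 524) Cdkn1c was 14.3 against 3.85 CPM (3.71-fold, 2.73 to 5.08) and Igf2r 28.1 against 17.9 CPM (1.57-fold, 1.32 to 1.86), the first under the 20 CPM limit and the second under 2-fold, in a comparison where 29.7% of 5029 genes were 2-fold higher and 2.37% lower. Restricted to AP RFP+ luminal-gate cells, Cdkn1c was 12.03 against 9.31 CPM (1.29-fold, 0.669 to 2.65) and Igf2r 32.7 against 33.0 CPM (0.994 times, 0.693 to 1.44), and 8.70% of 5541 genes were 2-fold higher and 6.95% lower. The lobes and RFP classes that made up the luminal gate differed between the treatments, and their part in the luminal-gate values was not tested.

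Other imprinted genes and a list of IGF pathway and related genes were counted beside the set in the explant. Of 38 further imprinted genes, 16 could be read between day 6 and day 0 in Epcam-positive cells, none was 2-fold higher and 5 were lower (3.99% and 5.15% of all genes), the largest differences being Nnat (202 to 60.9 CPM), Phlda2 (21.9 to 7.98) and Ppp1r9a (49.1 to 18.7). Their median log2 ratio was -0.31, beside 0.67 for the 9 genes of the set and -0.14 for all genes. The IGF list held 20 genes, some of which, such as Hmga2, are not components of the pathway. Of the 20, 10 could be read, none was higher and 3 were lower (the same background), with a median of -0.53. The 3 were Hmga2 (61.6 to 17.5 CPM), Igf2bp1 (68.9 to 27.3) and Igfbp7 (187 to 83.8). Hmga2, a chromatin protein, and Igf2bp1, an RNA-binding protein named for its binding to Igf2 mRNA, are known as fetal genes.

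In adult cells, 24 of the further imprinted genes were tested between basal and luminal gates by edgeR and split evenly, 7 higher and 7 lower in basal cells, beside 22.3% and 21.4% of all genes (median log2 fold change -0.18, beside 0.01 for all genes). The largest were Ascl2 (5.42, SE 0.70, adjusted p = 0.000928, edgeR), Nnat (4.14, SE 0.66) and Sgce (3.77, SE 0.38) toward basal cells, and Kcnq1 (-3.78, SE 0.92, adjusted p = 0.013, edgeR), Rasgrf1 (-2.50, SE 0.37) and Snrpn (-2.46, SE 0.26) toward luminal cells. Of 12 genes of the IGF list tested, 6 were higher in basal cells and 1 lower, against the same background, with a median of 1.15. Igfbp4 (4.15, SE 1.27) and Igfbp2 (4.00, SE 0.70) encode secreted IGF-binding proteins and Irs2 (3.57, SE 0.27) an adaptor of the insulin and IGF receptors, and the gene that was lower, Pappa2 (-6.13, SE 0.71), encodes a protease of IGF-binding proteins.

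Genes with the most similar pattern were ranked by Pearson's r of log2(CPM + 1) over 18 sums (12 from the explant, 4 days by 3 classes, and 6 from intact adult gates), among 5579 genes with at least 50 CPM in one sum. The sums of a library share its depth and its cells, and the explant and adult sums form separate groups, so r is given as a description. Dlk1 and Meg3 shared Capn6 as their nearest gene (r = 0.963 and 0.971), followed by Cpxm1 and Tspan3 for Dlk1 and by H1fx and Gjc1 for Meg3. Cdkn1c and Grb10 shared H2afy2 (0.982 and 0.991), with Gpc6 and Rfc1 next to Cdkn1c, and Evl and Ttc3 next to Grb10. H19 was nearest to Xist (0.989), the noncoding RNA of X inactivation, then to Sox11 and Fscn1, and Peg3 to Nme4 (0.988), Sox11 and Dpysl2. Mest stood nearest to Fbln1 (0.9501), Itm2a and Nsg1, Plagl1 to Adgrl3 (0.958), Itm2a and Ly6h, and Igf2r to P3h1 (0.948), Rab13 and Arl1. For Igf2 the nearest were Npepps (0.951), Pde6d and Gtf2h5, from few UMIs. Among the 10 genes themselves, Dlk1 and Meg3 gave the highest r (0.969) and Igf2 and Igf2r the lowest (0.329).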

How the data were processed

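Cells were profiled by 10x 3′ single-cell RNA-seq with MULTI-seq barcodes that mark each cell's pool. The deposited matrices hold UMI counts per gene and cell made by the authors with Cell Ranger 3.1.0 on mm10 (GRCm38), with Seurat 3.1.5 in the submitters' notes, and a deposited table of barcode counts per cell. Cells were kept with over 750 and under 7500 genes and under 10% mitochondrial UMIs (adult) or over 1000 genes and under 7.5% (explant), and assigned where 1 barcode passed the study's thresholds. Cells with several barcodes were dropped as multiplets and no doublet caller was run. The barcodes mark doublets between labelled pools only. The paper reports that the label of the intact DLP RFP+ pool failed in the adult runs that held castrated mice. For those runs it used DoubletFinder to remove the doublets missed in this way. Doublets with such unlabelled cells could pass as single cells here, and their part in the gates of those runs was not tested. The members and lists were chosen with earlier results of these data known.

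UMIs were summed per class and day, or per run. CPM is UMIs of a gene per 1000000 UMIs of the sum, with exact Poisson intervals at 95%, and a ratio to a sum at 0 used a floor of 3 counts. Both cover counting error only. Intact adult sums (3 runs per group, at least 10 cells each) were compared with edgeR 4.0.16 in R 4.3.3 (quasi-likelihood, TMM, filterByExpr, Benjamini-Hochberg over all genes tested, threshold 0.05), a test of spread between runs in place of the study's test over cells. The step was tested on simulated data. Same-run sums come from the same pooled mice, and their deviations from the group means correlated at 0.245 to 0.655, so that run pairs the groups. The named genes were all 10 members, up to 3 of each list with the largest change in each direction, and the 3 nearest genes by r. Alternatives were DESeq2 1.42.0, other scalings, gates, filters and barcode thresholds, the run as a block, and leaving out each run. DLP and other populations with a failed barcode in runs 1 and 2 entered no lobe or RFP comparison. Sequences came from RefSeq.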

Additional observations from a re-analysis of the deposited data

Results flagged for a closer look

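Day 6 stood on opposite sides of day 0 in different explant classes for 3 genes, and the difference between the classes was not tested, since each class has 1 pool per day. H19 on day 6 was 0.373 times its day 0 level in Epcam-positive cells and 2.36 times in collagen-high cells. Dlk1 was 5.36 times its day 0 level in Epcam-positive cells and 0.297 times in Pax2-positive cells. Plagl1 was 2.21 times its day 0 level in Epcam-positive cells, 0.495 times in Pax2-positive cells and 0.389 times in collagen-high cells. Groups of 3 runs are too small for a test of outlying samples, and none was made.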

How the results depend on the processing

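Counts of members at least 2-fold apart between day 6 and day 0 changed with 4 settings. In Epcam-positive cells, 4 members were higher and 1 lower, against 2 and 0 in luminal-gate cells only (203 and 112 cells), where Plagl1 turned to 0.579, and 2 and 3 in cells with under 10000 UMIs (370 and 22 cells), where Mest turned to 0.807; both settings were added after seeing the data. In collagen-high cells, 1 was higher and 1 lower, against 3 higher with a collagen gate of 50 and 5 per 10000 (1 and 3 cells), 2 lower with means of per-cell CPM, and 0 higher and 2 lower under 10000 UMIs. Fewer cells entered those sums, other than the means of per-cell CPM, which weight the same cells alike, and no cause was tested. The members called in basal against luminal cells (3) numbered 1 to 3 without single runs and 1 with cells under 7500 UMIs. Plagl1 raised the count from 0 to 1 between RFP classes of AP luminal cells with no low-count filter, and leaving out runs gave 0 to 1. With no such filter 2 members passed between VP and AP luminal cells. With the run as a replicate block, genes called between VP and AP luminal cells numbered 3452 in place of 2141, between RFP classes of AP basal cells 9 in place of 0, and between VP and AP basal cells 468 in place of 13, and the block changed the call of no member. Genes called numbered 5158 in basal against luminal cells (2184 to 6370 without single runs, 1330 with cells under 7500 UMIs), 2114 between RFP classes of AP luminal cells (991 to 1639, and 172, with 2 runs left in the RFP- group), and in VP against AP luminal cells 457 to 1812, 37 (with 1 VP sum, of 14 cells, assumed to vary like the AP sums), and 1329 without the 5% of cells with most UMIs. In AP basal cells by RFP they numbered 1 with DESeq2 and 3 with no filter, and in VP against AP basal cells 68, 155, 0 to 16 without single runs and 1 under 7500 UMIs. Small log2 fold changes, none past the threshold, changed sign. Igf2r in basal against luminal cells (0.10) was -0.062 to 0.17 without single runs and -0.10 under 7500 UMIs. Igf2r between RFP classes of AP basal cells (0.0079) was -0.048 to 0.10 without single runs, -0.066 with gates of 10 and 1, -0.011 with no additional barcode threshold and -0.016 without the 5% of cells with most UMIs, and Grb10 was -0.49 to 0.40 without single runs. Between VP and AP basal cells Cdkn1c was -0.14 to 0.37 and Igf2r -0.38 to 0.13 without single runs. Of the other values of single genes, 165 folds stayed within their interval and 76 moved without turning, and 167 log2 fold changes kept their direction and side of the threshold while 3 lost it. Depth limits Igf2, H19, Dlk1, Meg3 and Mest in adult epithelium, where counts of 0 to 17 UMIs per gate allow no ratio between gates.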
